A study of Homo sapiens with 4 samples.

Results

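AHCTF1 and the genes of the nuclear pore Y-complex were followed at their poly(A) sites (PAS) in esophageal squamous cell carcinoma (ESCC) cells with and without l-lactate. The 10 genes are AHCTF1, NUP107, NUP133, NUP160, NUP85, NUP43, NUP37, NUP98, SEH1L and SEC13. A PAS cluster (PAC) was taken as theirs when its dominant site, the base with most tags, lay on the same strand within the span of the gene in GENCODE release 44. This gave 18 of the 17627 PACs in the 4 libraries, with 12 in each KYSE30 library, 17 in the TE-1 l-lactate library and 16 in the TE-1 control library. AHCTF1 itself was chosen by measured values of the l-lactate and control libraries: among genes with a level over 20 tags per 1000000 (TPM) in all 4 libraries, it led by the smaller of its falls in distal usage with l-lactate in the 2 lines, so its l-lactate values are given here as a description.

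PAS-seq, which counts tags at the 3′ ends of polyadenylated RNA, was done on 2 human ESCC lines, KYSE30 and TE-1. Each line has 1 library from cells kept in 20 mM l-lactate for 24 h, and 1 from control cells labelled as having had PBS. The cell line field of the control samples reads KYSE32 and TE-3, while their titles and the study's methods name KYSE30 and TE-1, and these names were kept. A group was a single library (n = 1), without replicate error. Every interval below is a 95% interval from tag counts, covers counting error only, and compares libraries rather than conditions.

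The libraries held 7174991 to 10393799 tags by the step between their TPM values. Spearman's rho of PAC levels was 0.980 between the libraries of each line and 0.805 to 0.814 between lines. Of 7 squamous markers, SFN was listed in all 4 libraries at 205 to 313 TPM, TP63 and KRT6A only in KYSE30, KRT17 only in TE-1, and KRT5, KRT14 and DSG3 in none. Of 4 markers of other cell types, PTPRC, PECAM1 and COL3A1 had no PAC, and COL1A1 was listed at 4.84 and 5.39 TPM in TE-1 only.

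The Y-complex is the main scaffold of the nuclear pore and lines its cytoplasmic and nuclear faces. AHCTF1 encodes ELYS, a DNA-binding protein that brings the complex to chromatin as the nuclear envelope reforms after mitosis. NUP107 and NUP133 form the stem of the Y, NUP160, NUP85, NUP43 and NUP37 belong to its arms, and NUP96 is cleaved from a precursor encoded by NUP98. SEH1L and SEC13 also serve the GATOR2 complex of amino acid sensing, and SEC13 coats COPII vesicles that leave the endoplasmic reticulum. Cleavage of a pre-mRNA is directed by a hexamer, most often AAUAAA, a short way upstream of the site, and the choice among several sites sets the length of the 3′ UTR or even the coding region.

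AHCTF1 (ENSG00000153207.16) lies on the minus strand of chromosome 1, at 246839098 to 246931948 of GRCh38. Its canonical transcript AHCTF1-207 has 36 exons and a 3′ UTR of 1711 nt in a single piece. The proximal PAC has its dominant site at 246840544, 265 nt into the 3′ UTR, and the distal PAC at 246839316, 1493 nt into it. The distal PAC spans 215 nt from its dominant site to a far end at 246839101, close to the annotated end of the gene, and its dominant site also lies in the span of KIF28P on the same strand. The last 30 bases up to the sites that carry the results are given below as DNA, 5′ to 3′ on the minus strand of the GRCh38 reference, with the polyadenylation hexamer in capitals. They show that each AHCTF1 site has its own AATAAA and that the upstream NUP98 site has the weaker ATTAAA. The windows are chr1:246840544-246840573, chr1:246839316-246839345 and chr1:246839101-246839130 for AHCTF1, and chr11:3711835-3711864 and chr11:3675019-3675048 for NUP98.
AHCTF1 proximal site: aatggaatgttaAATAAAatgtatacttca
AHCTF1 distal site: aagtagcacAATAAAcatggatgcaacgta
AHCTF1 far end of the distal PAC: atatagcttgAATAAAaacactgctcatta
NUP98 upstream site: atgatttATTAAAtaatctcttaggaggca
NUP98 downstream site: tcttaaaaaataAATAAAatgtttatagca

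The hexamer was not particular to AHCTF1. Of the 16 PACs of these genes in a 3′ UTR, 13 had AATAAA within 50 nt upstream of the dominant site, 2 had ATTAAA only (the upstream sites of NUP160 and NUP98), and the downstream site of NUP160 had none of the 13 hexamers searched. Among all 14074 3′ UTR PACs, 66.9% had AATAAA and 16.8% had ATTAAA without it. TGTA, read on the transcribed strand only, was found within 100 nt upstream of 8 of the 16 sites and of 58.1% of all 3′ UTR PACs. The proximal AHCTF1 site had 2 copies, the distal dominant site had 0 and the far end had 2. A match describes the letters and not the binding of a factor.

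The 1228 nt that separate the AHCTF1 sites are kept only in the longer mRNA. They hold 10 copies of TGTA, 6 of ATTTA and 4 of AATAAA, and 32.8% of their bases are G or C.

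**Figure D1:**
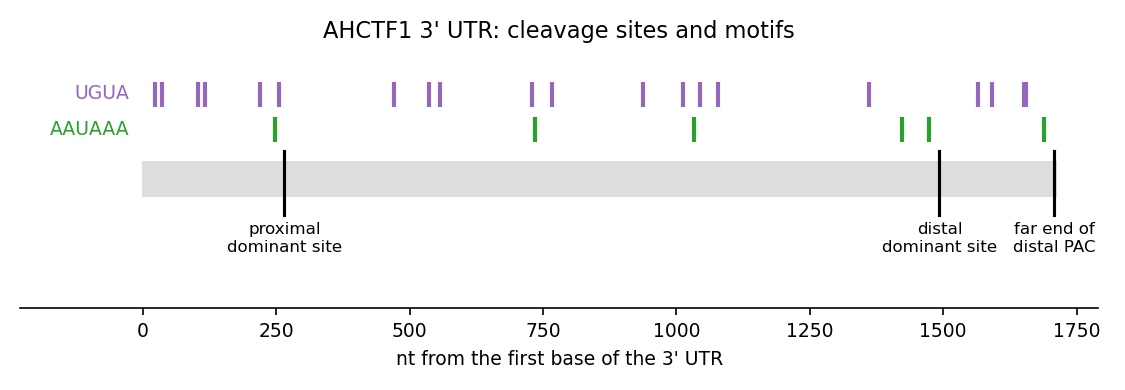
Map of the AHCTF1 3′ UTR in nt from its first base, drawn to scale, with the proximal and distal dominant sites and the far end of the distal PAC as vertical black lines and the positions of AAUAAA and UGUA as coloured ticks. The proximal site lies at 265 nt, the distal site at 1493 nt and the far end at 1708 nt of 1711 nt.

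AHCTF1 mRNA ended mostly at the proximal site in all 4 libraries, and the distal PAC held a smaller share with l-lactate in both lines. The proximal PAC was at 24.5 TPM in the KYSE30 control library and at 30.5 TPM in the KYSE30 l-lactate library. In TE-1 it was at 40.6 TPM in the control and at 53.6 TPM in the l-lactate library. The distal PAC was at 8.62 TPM in the KYSE30 control and 3.62 TPM in the KYSE30 l-lactate library, and at 12.6 and 4.25 TPM in the respective TE-1 libraries. The l-lactate libraries were thus the higher of each pair at the proximal PAC, by 1.245-fold in KYSE30 and 1.32-fold in TE-1, and the lower of each pair at the distal PAC, with ratios of 0.420 and 0.337.

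Distal usage was taken as the share of a gene's 3′ UTR tags that lay in its most distal PAC, over PACs above 5 TPM in at least 1 library of the line. For AHCTF1, 64 of 246 tags were distal in the KYSE30 control library, or 26.0% with a Wilson interval of 20.9 to 31.8%. With l-lactate this was 26 of 245 tags, or 10.6% (7.35 to 15.1%). The TE-1 control library had 131 of 553 tags there, or 23.7% (20.3 to 27.4%), and the TE-1 l-lactate library 36 of 490, or 7.35% (5.35 to 10.004%). The distal PAC passed the 5 TPM minimum through the control libraries alone. The difference was -15.4 points in KYSE30 (Newcombe interval -22.1 to -8.63) and -16.3 points in TE-1 (-20.6 to -12.1). A difference of at least 10 points towards lower usage was met in KYSE30 by 5.65% of 1699 genes and in TE-1 by 5.15% of 1708 genes. It was met in both lines by 1.31% of 1302 genes. The opposite, at least 10 points higher with l-lactate, was met by 3.24% of genes in KYSE30 and 6.21% in TE-1.

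The order behind the choice of AHCTF1 was close. By the smaller of the falls in the 2 lines AHCTF1 stood at 15.4 points, with TMEM237 next at 15.2 points (-15.2 in KYSE30 and -16.6 in TE-1) and HS2ST1 after it at 13.8 points (-14.2 and -13.8). ZNF721, named here because its values stood out, was lower by more (-51.4 and -67.9 points), but was not over 20 TPM in all 4 libraries. In a single line other genes over that level could fall further than AHCTF1, as TMEM237 did in TE-1.

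**Figure D2:**
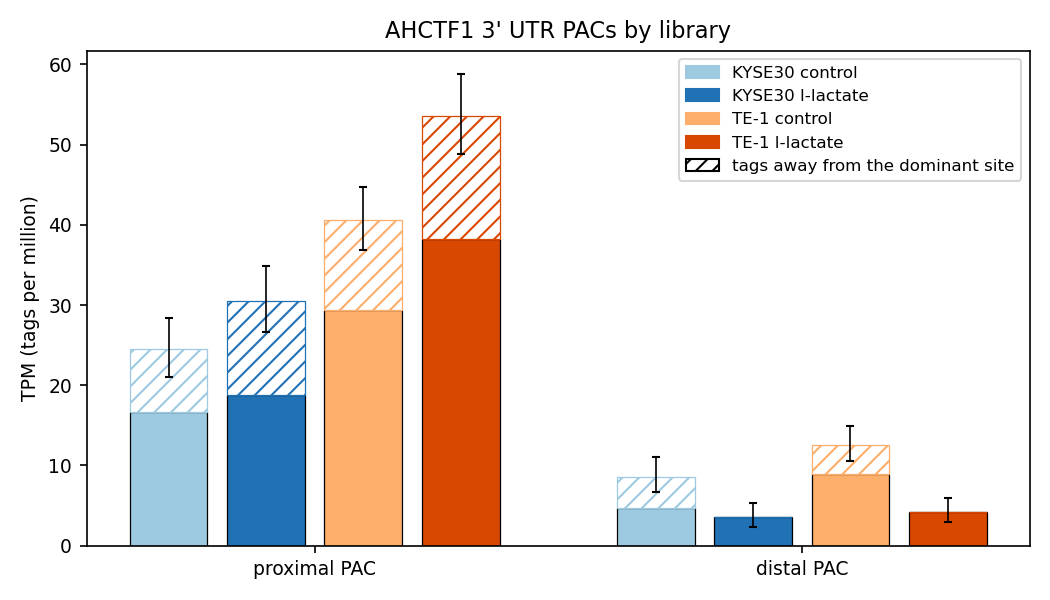
TPM of the proximal and distal 3′ UTR PACs of AHCTF1 in the 4 libraries. Filled parts are tags at the dominant site, hatched parts are tags elsewhere in the PAC, and error bars are exact 95% Poisson intervals of the tag count; the distal bars of both l-lactate libraries, at 3.62 and 4.25 TPM, have no hatched part.

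The composition of the distal PAC differed between the libraries in a way that bears on the size of this difference. In both l-lactate libraries every tag of the distal PAC was at its dominant site, 26 of 26 in KYSE30 and 36 of 36 in TE-1. In the control libraries 29 of 64 tags (3.91 TPM) and 38 of 131 tags (3.66 TPM) lay elsewhere in the PAC. The 10th to 90th percentile width was nonetheless listed as 216 nt in all 4 libraries, the distance to the far end, which a PAC with all its tags at 1 base could not have. Such PACs, with all tags at 1 base and a width above 1, numbered 45 to 69 per library, and neither TMEM237 nor HS2ST1 had this in its distal PAC.

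The study removed PACs of a single site below 3 TPM and joined PACs above 5 TPM in all samples within 500 nt, and the lowest PAC of 1 base in each library was at 3.07 to 3.10 TPM. In both l-lactate libraries the distal AHCTF1 PAC itself was under 5 TPM, at 3.62 TPM in KYSE30 and 4.25 TPM in TE-1. Each library also held 16 to 19 PACs whose dominant site was listed above the total of the PAC. Whether tags at the far end were left out of the l-lactate libraries was not tested, and 3 TPM serves below as an example rather than a bound. If 3 TPM, 21 tags in KYSE30 and 25 in TE-1, were added to the l-lactate distal PAC, distal usage would be 17.7% and 11.8%. The difference would then be -8.35 points in KYSE30 and -11.8 points in TE-1, smaller in both than that of TMEM237. If only the fewest tags that would put 10% of the PAC at the far end were added (3 and 4 tags), the differences would be -14.3 and -15.6 points.

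When tags at dominant sites alone were used, distal usage of AHCTF1 was 22.01% in the KYSE30 control (35 of 159 tags) and 16.1% with l-lactate (26 of 161 tags). The TE-1 values were 23.3% (93 of 399 tags) and 10% (36 of 360 tags). The difference was then -5.86 points in KYSE30, with an interval of -14.4 to 2.78 that includes 0, and -13.3 points in TE-1, with an interval of -18.5 to -8.06. On this measure the l-lactate value was the lower in both lines, within counting error in KYSE30. These tags are part of those by which AHCTF1 was chosen, so the recount is no separate support for the fall.

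A further AHCTF1 PAC lay in an intron, with its dominant site at 246887560 and an AATAAA upstream, and was listed in TE-1 only. It was at 4.49 TPM with l-lactate (38 tags) and 1.64 TPM in the control (17 tags), a ratio of 2.74 with an exact interval of 0.60 to 2.37 on the log2 scale. An mRNA ending there would lack the downstream exons of AHCTF1.

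The summed level of AHCTF1 differed less than its PACs. It was 33.1 TPM in the KYSE30 control and 34.1 TPM with l-lactate, and 54.8 and 62.3 TPM in TE-1. The log2 ratio of l-lactate to control, with 1 TPM added to each value, was 0.04 in KYSE30 (exact interval -0.22 to 0.30). In TE-1 it was 0.18 (0.01 to 0.36), and both were inside 1.5-fold. The TE-1 sums include the intronic PAC, and with 3′ UTR PACs only the TE-1 ratio was 0.12.

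By distal usage over the 4 libraries, the genes most like AHCTF1 among 1111 genes were YIPF4, JUN, KLHL5, MTMR2 and AGPAT5. The largest difference from AHCTF1 in any library was 4.35 points for YIPF4 and 6.73 to 7.24 points for the other 4 genes. YIPF4 was at 22.6% in the KYSE30 control and 11.2% with l-lactate, and at 19.5 and 11.7% in TE-1.

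NUP98, NUP160 and SEH1L were the other members with at least 2 PACs in 3′ UTRs, and in all 3 distal usage was lower in the l-lactate library of each line. With AHCTF1 this made 4 of 4 genes lower in KYSE30, where 56.7% of genes were lower by any amount, and 4 of 4 in TE-1, where 46.4% were. In both lines at once 35.4% of 1302 genes were lower. At least 10 points lower were AHCTF1 and NUP98 in KYSE30 and AHCTF1 alone in TE-1, and the interval of the difference lay below 0 for 3 of 4 genes in KYSE30, where it did for 16.4% of all genes, and for 2 of 4 in TE-1, where it did for 16.3%. The median difference was -8.93 points in KYSE30 and -4.22 points in TE-1, beside -0.54 and 0.30 points over all genes tested. With 4 genes, 1 of them chosen for its fall, these counts and medians describe the genes and no more.

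NUP98 ends in different places for different proteins. The upstream PAC, with its dominant site at 3711835 on chromosome 11, lies in the 3′ UTR of NUP98-204, NUP98-205 and other transcripts of 18 to 20 exons, which code for NUP98 without the NUP96 part. The downstream PACs, at 3675881 and 3675019, lie in the 3′ UTR that follows the NUP96 part, as in the canonical 33-exon NUP98-201, which codes for the NUP98-NUP96 precursor. The PAC at 3675881 was listed in TE-1 only and lies at the annotated end of the 13-exon NUP98-207 among others, so that its tags are not shown to come from the full precursor transcript. Only the NUP96 part belongs to the Y-complex, whereas NUP98 itself is an FG-repeat protein of the pore's transport barrier.

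The upstream, NUP98-only end was the higher of each pair with l-lactate. It was at 6.73 TPM in the KYSE30 control and 9.62 TPM with l-lactate, and at 19.1 and 28.0 TPM in TE-1, ratios of 1.43 and 1.46. The downstream PACs together were at 18.4 TPM in the KYSE30 control and 16.3 TPM with l-lactate, and at 36.1 and 33.3 TPM in TE-1. Within TE-1 the difference was at the PAC at 3675881 (7.79 TPM in the control and 3.90 TPM with l-lactate), while the most distal PAC was at 28.3 and 29.4 TPM.

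Distal usage of NUP98, which counts the most distal PAC alone, was 73.3% in the KYSE30 control and 62.9% with l-lactate, a difference of -10.4 points (-19.6 to -0.90). Its TE-1 values were 51.2% and 48.0%, a difference of -3.24 points (-9.14 to 2.69). When both downstream PACs were counted together, a grouping chosen after the values were seen, they held 73.3% (137 of 187 tags) and 62.9% (117 of 186 tags) in KYSE30. In TE-1 they held 65.3% (375 of 574 tags) in the control and 54.3% (282 of 519 tags) with l-lactate, a difference of -11.0 points (-16.7 to -5.18). With dominant sites alone these differences were -14.6 points (-25.03 to -3.61) and -12.8 points (-19.3 to -6.02). In TE-1 the larger difference of this grouping rests on the PAC at 3675881, which passed 5 TPM in the control only, and the interval of distal usage itself includes 0. An intronic NUP98 PAC at 3698123, listed only in the TE-1 control at 3.27 TPM (34 tags), is not in these shares.

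SEH1L, a beta-propeller protein that binds NUP85, has 2 PACs on the plus strand of chromosome 18, at 12985713 and 12987535. Both lie in the 2287-nt 3′ UTR of SEH1L-201, 463 and 2285 nt past its start. The proximal PAC lies upstream of the 3′ UTR of the canonical SEH1L-202, whose end the distal PAC marks, so that distal tags can come from either transcript. The proximal PAC was at 30.03 TPM in the KYSE30 control and 37.1 TPM with l-lactate, and at 28.9 and 36.1 TPM in TE-1. The distal PAC was at 82.3 and 71.2 TPM in KYSE30 and at 53.3 and 53.5 TPM in TE-1. In TE-1 it was thus the proximal PAC that differed, with a ratio of 1.252 against 1.004 at the distal PAC.

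Distal usage of SEH1L was 73.3% in the KYSE30 control and 65.8% with l-lactate, a difference of -7.50 points (-11.96 to -3.00). The TE-1 values were 64.9 and 59.7%, a difference of -5.19 points (-9.90 to -0.45). Both intervals lay below 0, and neither difference reached 10 points. With dominant sites alone the difference was -11.2 points in KYSE30 (-17.0 to -5.27) and -8.48 points in TE-1 (-14.2 to -2.69). On that measure the genes at least 10 points lower in KYSE30 were NUP98 and SEH1L, not AHCTF1 and NUP98.

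NUP160, a large scaffold protein of the long arm, ends mainly at 47778122 on chromosome 11, within 24 nt of the annotated end of its canonical transcript. The PAC at 47839505, the other of the 2 that passed 5 TPM, lies at the end of the 3-exon transcripts NUP160-203 and NUP160-213. Distal usage was 85.5% in the KYSE30 control and 81.7% with l-lactate, a difference of -3.78 points (-8.39 to 0.79). In TE-1 it was 87.5% and 86.3%, a difference of -1.22 points (-3.65 to 1.20). Neither difference was larger than the counting error.

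**Figure D3:**
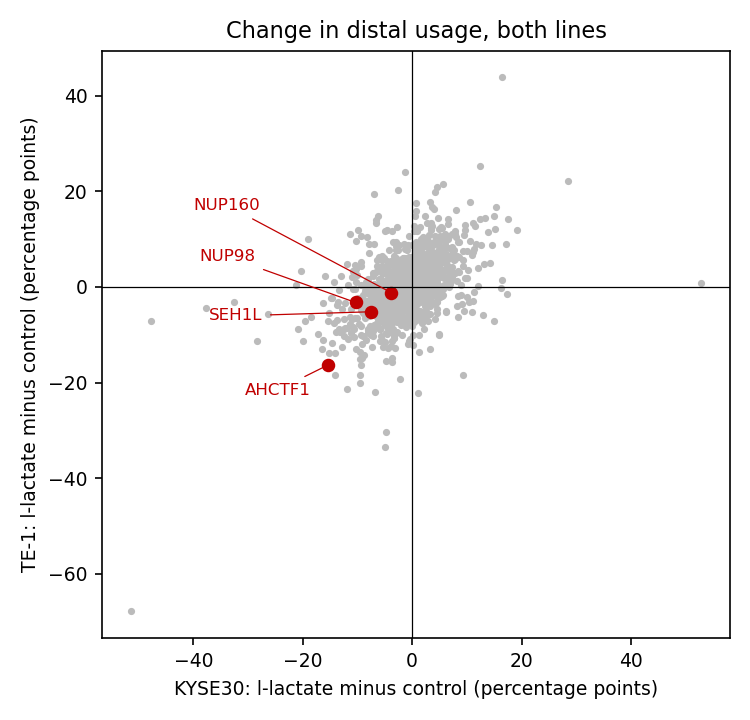
Difference in distal usage between l-lactate and control libraries, in percentage points, in KYSE30 (horizontal) and TE-1 (vertical), with 1 grey point per gene for 1302 genes and the 4 genes of the Y-complex group in red. All 4 lie to the lower left of the origin, with AHCTF1 at -15.4 and -16.3 and NUP160 nearest to 0.

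NUP107, NUP133, NUP85, NUP43, NUP37 and SEC13 had 1 PAC each, so that no distal usage could be computed. The NUP107 PAC lay 225 nt past the stop codon, far short of the annotated end of a 3350-nt 3′ UTR, and at the end of the shorter transcript NUP107-202. The NUP133 PAC had its dominant site 610 nt into a 1648-nt 3′ UTR, and the NUP37 PAC lay 168 nt into one of 1254 nt. The NUP37 PAC was within 24 nt of the annotated ends of NUP37-201 and NUP37-203. At 752 nt the NUP133 PAC was wide, and its dominant site held 34.6 to 43.7% of its tags by library. Ends within it were not separated. The NUP43 PAC lay 2650 nt into a 2657-nt 3′ UTR, and those of NUP85 and SEC13 also lay at annotated ends. Of the 18 PACs, 12 lay within 24 nt of an annotated transcript end. Where a PAC was listed in both libraries of a line, its dominant site was the same base in 12 of 12 PACs of KYSE30 and in 14 of 15 of TE-1. The exception was the upstream PAC of NUP160, whose dominant site moved by 5 nt.

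In level, none of the genes was past 1.5-fold between l-lactate and control. Of 8 genes compared in KYSE30 0 were past it, where 4.36% of 9395 genes were, and of 9 genes compared in TE-1 0 were past it, where 4.2% of 9194 genes were. The log2 ratios ran from -0.32 to 0.25 with a median of -0.01 in KYSE30, and from -0.17 to 0.22 with a median of 0.07 in TE-1. Over all genes the medians were 0.0042 and 0.04. In RNA from bulk cells, fewer cells with an mRNA and less of it per cell cannot be told apart.

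Among the scaffold genes, NUP107 was at 128 TPM in the KYSE30 control and 116 TPM with l-lactate, and at 122 and 128 TPM in TE-1. NUP133 was at 55.2 and 65.6 TPM in KYSE30 and at 48.0 and 53.1 TPM in TE-1, the higher value being that of l-lactate in both lines. NUP160 was at 70.7 and 67.2 TPM in KYSE30 and at 149 and 174 TPM in TE-1. The counting interval of the log2 ratio kept to 1 side of 0 for NUP107 (-0.28 to -0.01) and NUP133 (0.06 to 0.44) in KYSE30 and for NUP160 (0.12 to 0.33) in TE-1, and the sign was the opposite in the other line for NUP107 and NUP160.

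NUP85, which joins SEH1L in the short arm, was the lowest gene listed in all 4 libraries. It was at 9.83 TPM in the KYSE30 control and 7.67 TPM with l-lactate, and at 12.9 and 11.3 TPM in TE-1, with intervals of the ratio that include 0. SEC13 was the highest, at 141 and 158 TPM in KYSE30 (log2 interval 0.04 to 0.29) and 351 and 354 TPM in TE-1. SEH1L was at 112 and 108 TPM in KYSE30 and at 82.2 and 89.6 TPM in TE-1. NUP98 was at 25.2 and 25.9 TPM in KYSE30 and at 58.5 and 61.3 TPM in TE-1, so that the sum over its ends hardly differed while the ends did.

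In level, SEC13, NUP98, NUP160, AHCTF1 and SEH1L differed more between the lines than between l-lactate and control. This did not hold clearly for NUP107, NUP133 and NUP85. Their log2 ratios between the controls were -0.08, -0.20 and 0.36, beside -0.14, 0.25 and -0.32 with l-lactate in KYSE30. Between the control libraries 4 of 8 genes were past 1.5-fold, all higher in TE-1, where 57.3% of 10189 genes were past it in either direction. They were SEC13 (2.49-fold, log2 interval 1.22 to 1.42), NUP98 (2.32-fold, 0.98 to 1.46), NUP160 (2.11-fold, 0.93 to 1.22) and AHCTF1 (1.66-fold, 0.51 to 0.95). Between the l-lactate libraries the same 4 genes were past it, at 2.24-fold, 2.36-fold, 2.59-fold and 1.83-fold, where 56% of 10187 genes were. Counted in either direction, 4 in 8 is near the share of all genes. The share of all genes past 1.5-fold towards TE-1 alone is not given here. Between the controls 76.3% of genes had a lower ratio of TE-1 to KYSE30 than AHCTF1, the lowest of the 4. SEH1L and NUP133 were lower in TE-1, with ratios of 0.732 and 0.869 between controls and of 0.828 and 0.809 between l-lactate libraries.

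The order of levels in the KYSE30 control was SEC13, NUP107, SEH1L, NUP160, NUP133, AHCTF1, NUP98 and NUP85, and it was the same with l-lactate. In the TE-1 control it was SEC13, NUP160, NUP107, SEH1L, NUP43, NUP98, AHCTF1, NUP133 and NUP85, and with l-lactate AHCTF1 and NUP98 changed places. Tag levels at 3′ ends are not scaled by length, since each mRNA gives its end once. Summed over the 10 genes the level was 575 and 583 TPM in the KYSE30 control and l-lactate libraries and 945 and 1005 TPM in those of TE-1.

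NUP43, a beta-propeller protein of the Y-complex, was the only member listed in both libraries of TE-1 and in neither of KYSE30. It was listed at 66.6 TPM in the TE-1 control (692 tags) and 68.2 TPM in the TE-1 l-lactate library (578 tags), at 149724322 on chromosome 6. The nearest PACs on its strand, of LATS1 and LRP11, were listed in KYSE30 at 28.3 to 28.4 and at 62.3 to 63.3 TPM. Of 8728 genes at 5 TPM or more in both TE-1 libraries, 5.11% were not listed in KYSE30, and of 2673 genes at 60 TPM or more, 45 were not. The tables list no PAC of 1 base below 3 TPM, so that a lower level in KYSE30 cannot be told from none.

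NUP37, which binds NUP160, was listed in the TE-1 l-lactate library alone, at 3.07 TPM (26 tags). That is the lowest level a PAC of 1 base reached in that library, and NUP37 is given no ratio.

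Between the control libraries of the lines, distal usage of NUP98 was 51.2% in TE-1 and 73.3% in KYSE30, a difference of -22.0 points (-29.2 to -14.1). SEH1L was at 64.9% in TE-1 and 73.3% in KYSE30, a difference of -8.39 points (-12.7 to -3.98). AHCTF1 differed by -2.33 points (-9.05 to 3.97) and NUP160 by 1.9601 points (-1.30 to 5.58), both within counting error. Between the l-lactate libraries NUP98 differed by -11.7 points (-19.6 to -3.27), without the PAC at 3675881, which was under 5 TPM there. SEH1L differed by -6.08 points (-10.9 to -1.25) and NUP160 by 4.52 points (0.82 to 8.58). AHCTF1 had no value between these libraries, since its distal PAC was under 5 TPM in each, at 3.62 TPM in KYSE30 and 4.25 TPM in TE-1. With both downstream PACs of NUP98 counted together its differences were -7.93 points between the controls (-15.0 to -0.18) and -8.57 points between the l-lactate libraries (-16.5 to -0.27). NUP98 and SEH1L were thus lower in TE-1 in each of these pairs of single libraries, and the size for NUP98 depended on which PACs were counted.

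The rest of the pore gave a comparison. Of 23 other nucleoporins 20 were listed and 19 could be compared in level in each line, of which 0 were past 1.5-fold between l-lactate and control in either. Over all genes 4.36% were past it in KYSE30 and 4.2% in TE-1. In each line 5 had at least 2 PACs, of which 0 were at least 10 points lower or higher, and 2 were lower by any amount in KYSE30 and 3 in TE-1. Over all genes tested, 5.65% were at least 10 points lower and 3.24% higher in KYSE30, and 5.15% and 6.21% in TE-1. Lower by any amount were 56.7% in KYSE30 and 46.4% in TE-1. With 5 genes, 0 is near these 10-point shares and does not set the rest of the pore apart. RANBP2, the large SUMO ligase of the cytoplasmic filaments, was at 11.6% in the KYSE30 control and 6.19% with l-lactate, and at 8.998 and 5.07% in TE-1. TMEM33, of the membrane, was also lower in each line, with differences of -2.89 and -5.17 points. NUP155, of the inner ring, was higher in each, by 2.17 and 6.34 points.

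Of the 10 COPII partners of SEC13, SEC24D was past 1.5-fold in KYSE30, at 12.5 TPM in the control and 19.7 TPM with l-lactate. Its TE-1 levels were 15.01 and 21.7 TPM, inside 1.5-fold on the log2 scale with 1 TPM added. The other 9 partners were inside it in KYSE30, as were all 9 compared in TE-1, beside the 4.36% and 4.2% of all genes past it. Of the 3 GATOR2 partners of SEH1L and SEC13 only MIOS was listed, and it was inside 1.5-fold in both lines. The 5 factors of pore assembly and import, among them RAN and its importin KPNB1, were inside it in both.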

How the data were processed

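The 4 PAS-seq libraries came from KYSE30 and TE-1 cells, with 1 l-lactate and 1 control library per line. Per the study's methods, the authors trimmed reads with FASTX-Toolkit 0.0.13, aligned them to GRCh38 (GRCh38.p14 in the submitters' processing notes) with HISAT2 and called PACs with CAGEr, excluding sites below 1 TPM, joining sites within 24 nt, removing PACs of a single site below 3 TPM and joining PACs above 5 TPM in all samples within 500 nt. The deposited values are RPM, called TPM: tags per 1000000 tags of the library, with no length correction. Deposited starts count from 0 and positions here from 1.

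Whole tags were recovered from the RPM step, within 0.00051 TPM for 99.99% of values or more in each library. No count model was run, since a group holds 1 library. PACs were placed by their dominant site in GENCODE release 44, 3′ UTR first, and a site up to 24 nt past an annotated 3′ UTR end was given to that gene. Distal usage needed at least 2 PACs above 5 TPM in the line and was called at 10 points. Gene level, the sum over PACs, was called past 1.5-fold after adding 1 TPM, for genes of at least 5 TPM. Wilson, Newcombe and exact binomial intervals at 95% cover counting error only. The distal usage and level steps were computed with Python 3.11.15, pandas 2.3.3 and SciPy 1.17.1, and the distal usage step was tested on simulated data. That simulation held 2 PACs per gene, all far above 5 TPM, and so did not cover PACs near that minimum. All 10 members, the 5 genes most like AHCTF1 and the 2 ranked after it are named by rule. The members and lists were chosen with earlier results of these data known.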

Additional observations from a re-analysis of the deposited data

Results flagged for a closer look

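3 low PACs of these genes stood outside the comparisons of distal usage, each listed in TE-1 with l-lactate and at a lower level or not at all in the control. Their tags do count in the gene levels and in the level summed over the 10 genes. The intronic AHCTF1 PAC at 246887560 was at 4.49 TPM with l-lactate against 1.64 TPM in the control. The NUP160 PAC at 47792014, at the end of the 28-exon transcript NUP160-206, was at 3.07 TPM (26 tags) with l-lactate and was not listed in the control. The NUP37 PAC at 102074189 was at 3.07 TPM (26 tags) and was likewise not listed in the control. The last 2 are at the lowest level of a PAC of 1 base in that library, and the part of the 3 TPM minimum in their absence from the control was not tested. A low PAC with the opposite pattern, in an intron of NUP98 at 3698123, was listed in the TE-1 control alone, at 3.27 TPM (34 tags).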

How the results depend on the processing

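The labels give no replicate numbers, so no replicate block was fitted; a fit over both lines with line as a term was not run, and each within-line group holds 1 library, so that none could be left out. Of 57 alternative values 48 stayed within the counting interval or, for counts, within 1.5 times, and 9 did not; 0 changed the sign of a called value. Among the 48, the AHCTF1 log2 level ratio in KYSE30 turned from 0.04 to -0.11 with PACs over 5 TPM only, that in TE-1 went from 0.18 to 0.12 with 3′ UTR PACs only, the 2 genes lower in KYSE30 became 3 at a limit of 5 points, and the 4 genes past the fold limit between controls became 6 at a smaller fold limit and 3 at 2-fold. The difference in AHCTF1 distal usage in KYSE30 was -5.86 points with dominant sites alone and -8.35 points with 3 TPM added to the l-lactate distal PAC, and in TE-1 -11.8 points with 3 TPM added; these alternatives were chosen after seeing the data. With a minimum of 10 TPM it had no value in KYSE30, since the distal PAC falls below it. The 2 genes at least 10 points lower in KYSE30 became 0 with a minimum of 10 TPM or a limit of 20 points, and 1 with Fisher's exact test on tags, which compares the libraries only and called 41 of 1699 genes lower; the 1 is AHCTF1, which was chosen for this fall. The 1 gene in TE-1 became 2 at a limit of 5 points and 0 at 20 points. The AHCTF1 log2 level ratio in TE-1 was 0.0107 with PACs over 5 TPM only. Counts of 26 to 131 tags in the distal AHCTF1 PAC limit every value drawn from it.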
